A study of Mus musculus with 26 samples.

Results

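The cornified envelope genes examined here were the protein-coding genes of mouse chromosome 3 that encode late cornified envelope proteins (Lce), small proline-rich proteins (Sprr), the S100-fused proteins filaggrin (Flg), filaggrin 2 (Flg2), hornerin (Hrnr), repetin (Rptn) and cornulin (Crnn), and the single-copy genes Loricrin, Ivl (involucrin), Kprp, Crct1 and Lelp1. They were chosen by gene symbol alone, and 48 of the 57010 genes in the count table met the rule. By family there were 14 Lce1 genes, 12 Sprr2 genes, 6 Lce3 genes, 5 other Sprr genes, 5 S100-fused genes, 5 single-copy genes and Lce6a. They lay within 1.32 Mb of chromosome 3 (GRCm39), which is known as the epidermal differentiation complex. A filter on low counts kept 46 members, and Lelp1 and Sprr3 were left out of the tests.

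The cornified envelope is the insoluble protein shell that replaces the cell membrane of a keratinocyte as it becomes a dead cell of the skin surface. Transglutaminases crosslink loricrin, involucrin, Sprr and Lce proteins into it, while filaggrin gathers the keratin filaments inside and is later broken down to small molecules that hold water. In humans, loss of filaggrin is a known risk for atopic dermatitis, and LCE3 and SPRR2 genes are known to be expressed in inflamed or injured epidermis.

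RNA was measured by bulk RNA sequencing in ears of female wild-type Balb/cAnNRj mice, which were 8 weeks old at purchase, and each library came from a 4 mm biopsy of 1 mouse taken on day 9. In 3 groups, dermatitis was induced on the ear with MC903 (calcipotriol, a vitamin D analog) at 1 nmol per day for 6 days. These were the MC903+RGRN-305 group (n = 8), given the HSP90 inhibitor RGRN-305 on the skin at 1 mg per day, the MC903+Dexamethasone group (n = 4), given the glucocorticoid dexamethasone on the skin at 20 nmol per day, and the MC903 group (n = 8), given the drug vehicle ethanol. The Vehicle group (n = 6) received neither MC903 nor a drug. The 2 drugs were given at doses that were not matched, so a difference between them is a difference between these 2 regimens.

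Total counts per library ranged between 13695023 and 35130972, with group medians of 22711330 in MC903+RGRN-305, 25540724 in MC903+Dexamethasone, 21971156 in MC903 and 23995199 in Vehicle. Levels are given as CPM, the count divided by the library's size in units of 1e6 counts after scaling by TMM (a trimmed-mean normalisation), and log2 fold changes, with their SE, came from edgeR's quasi-likelihood test with Benjamini-Hochberg adjustment over 20167 genes. A gene was called at an adjusted p below 0.05. The ears expressed the epidermal keratins Krt5, Krt14, Krt1 and Krt10 at a summed 40373 to 53384 CPM in MC903+RGRN-305, 56243 to 63159 CPM in MC903+Dexamethasone, 44729 to 58084 CPM in MC903 and 25537 to 32138 CPM in Vehicle ears. These keratins did not change alike. Mean levels in MC903 and Vehicle ears were 7081 and 705 CPM for Krt1, 11451 and 3608 for Krt14, 6914 and 5706 for Krt5, and 24795 and 18654 for Krt10. How far their sum follows the epidermal share of the RNA was not tested. A change in the sum cannot be told apart here from a change in that share, and scaling to the sum was used as an alternative. In a whole biopsy, fewer cells of a type and less RNA per cell cannot be told apart.

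Sequences upstream of the genes are shown first, for neighbouring members that differed much or little in their response to MC903 or to the drugs. The part of these sequences in the responses was not tested. RefSeq promoters on the GRCm38.p6 build, each with 250 bases before and 50 bases after the start, were matched for 42 of 48 members. One start was listed per gene, which may not be the only one in use. Neighbours are here genes that follow each other within their class, and a gene of another class may lie between them. Lce3f and Lce1m are neighbours among the Lce genes, with Crct1 between them. With 53.1% identity over the 250 upstream bases, they had the largest difference in response to MC903 of any neighbouring pair. Their upstream bases are, for Lce3f, chr3:92991967-92992216 on the plus strand and, for Lce1m, chr3:93019062-93019311 on the minus strand.
Lce3f: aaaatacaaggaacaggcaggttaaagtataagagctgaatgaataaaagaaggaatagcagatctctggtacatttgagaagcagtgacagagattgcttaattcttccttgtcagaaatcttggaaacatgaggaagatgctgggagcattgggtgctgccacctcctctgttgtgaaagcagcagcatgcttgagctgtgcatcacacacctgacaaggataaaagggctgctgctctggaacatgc
Lce1m: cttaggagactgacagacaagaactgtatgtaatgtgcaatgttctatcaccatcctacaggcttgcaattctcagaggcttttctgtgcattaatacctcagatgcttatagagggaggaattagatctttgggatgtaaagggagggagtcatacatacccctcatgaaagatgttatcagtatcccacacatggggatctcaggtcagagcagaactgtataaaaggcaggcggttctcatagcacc

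The neighbours Lce6a and Lce1a1 had the smallest difference in response to MC903, with 49.7% identity over the same stretch, and lie at chr3:92621661-92621910 and chr3:92648308-92648557, both on the minus strand of GRCm38.p6.
Lce6a: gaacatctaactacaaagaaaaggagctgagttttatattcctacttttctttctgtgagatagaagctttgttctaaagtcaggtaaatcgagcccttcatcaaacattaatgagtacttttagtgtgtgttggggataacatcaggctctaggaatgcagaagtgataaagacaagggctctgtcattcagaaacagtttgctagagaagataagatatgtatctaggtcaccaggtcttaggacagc
Lce1a1: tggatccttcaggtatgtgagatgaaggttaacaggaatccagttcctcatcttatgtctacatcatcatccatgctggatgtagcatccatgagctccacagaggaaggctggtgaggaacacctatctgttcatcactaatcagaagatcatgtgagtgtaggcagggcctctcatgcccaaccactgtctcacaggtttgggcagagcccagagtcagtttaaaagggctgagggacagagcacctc

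Sprr2a3 (chr3:92285054-92285303) and Sprr2b (chr3:92316455-92316704), both on the plus strand of GRCm38.p6, are shown because they parted under dexamethasone, and were picked after their values were seen. Their upstream bases had 50.3% identity. Over the same stretch, 704 pairs of members from different families had a median identity of 51.2%, between 44.6% and 55.9%. The identities given so far all lie in that range. Sprr2a3 has a longer annotated transcript than Sprr2b, so the upstream bases compared may not be counterparts. Capitals mark a match to the AP-1 motif (TGANTCA, searched on both strands), the binding sequence of Fos and Jun factors.
Sprr2a3: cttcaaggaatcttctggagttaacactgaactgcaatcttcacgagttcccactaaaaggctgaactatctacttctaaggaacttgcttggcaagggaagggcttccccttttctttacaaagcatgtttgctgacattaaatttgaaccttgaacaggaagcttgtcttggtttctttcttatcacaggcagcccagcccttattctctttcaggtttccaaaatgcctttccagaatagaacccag
Sprr2b: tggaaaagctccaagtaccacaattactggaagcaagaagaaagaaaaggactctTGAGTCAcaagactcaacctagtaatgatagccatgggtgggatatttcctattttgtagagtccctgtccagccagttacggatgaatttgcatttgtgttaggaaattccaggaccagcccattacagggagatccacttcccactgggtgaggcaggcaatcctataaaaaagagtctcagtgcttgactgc

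An AP-1 match was present in 15 of 42 member promoters (35.7%), against 7.8% of the 32851 promoters of 300 bases in the table. It was found in 7 of 10 Sprr2 promoters and 4 of 5 S100-fused promoters, and in 0 of 13 Lce1 and 0 of 6 Lce3 promoters. In the 7 Sprr2 promoters the first match began between positions -198 and -193 from the start, and Sprr2k held a second match nearer the start. Sprr2a1, Sprr2a2 and Sprr2a3 were the 3 Sprr2 promoters without a match in the searched window. These 3 genes have longer annotated transcripts than the other Sprr2 genes, so their listed starts may not correspond to those of the others. Whether they hold a match outside this window was not tested. The 49 bases around the first match in the other 7 are given on the plus strand of GRCm38.p6, with the match in capitals, to show how alike this stretch was between genes. They begin at chr3:92316498-92316546 (Sprr2b), chr3:92338935-92338983 (Sprr2d), chr3:92351938-92351986 (Sprr2e), chr3:92364978-92365026 (Sprr2f), chr3:92385475-92385523 (Sprr2h), chr3:92407786-92407834 (Sprr2i) and chr3:92432374-92432422 (Sprr2k).
Sprr2b: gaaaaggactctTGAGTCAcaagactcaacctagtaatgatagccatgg
Sprr2d: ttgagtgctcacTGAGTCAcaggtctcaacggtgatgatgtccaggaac
Sprr2e: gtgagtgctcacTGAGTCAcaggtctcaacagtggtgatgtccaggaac
Sprr2f: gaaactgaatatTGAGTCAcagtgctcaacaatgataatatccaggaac
Sprr2h: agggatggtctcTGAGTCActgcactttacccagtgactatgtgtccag
Sprr2i: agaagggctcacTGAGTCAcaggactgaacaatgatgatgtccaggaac
Sprr2k: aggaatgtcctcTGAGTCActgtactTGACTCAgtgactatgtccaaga

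Other motifs had shares nearer to those of the whole table. The STAT motif (TTCNNNGAA) was present in 3 of 42 member promoters (7.1%), against 8.3% of all, and the CACCC box in 22 of 42 (52.4%), against 57.5%. The ETS core (GGAAGT) was present in 12 of 42 (28.6%), against 23.8%. The ISRE core (GAAANNGAAA) was in 0 members, against 3.4% of all promoters, and the glucocorticoid response element (GNACANNNTGTNC) in 0 members, against 0.5%. A match is a stretch of letters in this window, and its use was not tested.

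To identify which envelope genes responded to MC903, MC903 ears were compared with Vehicle ears. Of the 46 members tested, 41 were higher and 3 were lower in MC903 ears, where 70.2% of all genes were called, 34.5% higher and 35.7% lower. The median log2 fold change of the members was 1.76, against -0.02 over all genes. The families differed in size of response: 12 of 12 Sprr2 genes rose with a median of 7.90, 6 of 6 Lce3 genes rose with a median of 8.16, and 13 of 14 Lce1 genes rose with a median of 1.12. Flg2, Lce1m and Sprr4 fell, and Ivl and Crnn were not called.

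Over all members, 6 were called higher and 23 lower in MC903+RGRN-305 against MC903, where 37.9% of all genes were called, 18.6% higher and 19.4% lower. In MC903+Dexamethasone against MC903, 7 were called higher and 18 lower, where 46.4% of all genes were called, 23% higher and 23.3% lower. These 2 comparisons share the MC903 ears. Scaled to the epidermal keratins, the members divided into 6 higher and 23 lower with RGRN-305, and 2 higher and 20 lower with dexamethasone. Of all 20167 genes under this scaling, 4288 were higher and 2747 lower with RGRN-305, and 1918 higher and 7424 lower with dexamethasone. The drug-treated ears also remained apart from Vehicle, with 42 members higher and 3 lower in MC903+RGRN-305 (59.9% of all genes called, 30.3% higher and 29.5% lower) and 42 higher and 3 lower in MC903+Dexamethasone (55.8% of all genes called, 26.4% higher and 29.4% lower). Keratin scaling left fewer called higher than Vehicle. Lce1 genes called higher then numbered 11 of 14 with RGRN-305 and 7 with dexamethasone, against 13 with each drug unscaled. Of 4 tested single-copy genes, 0 and 1 were then called higher, against 4 and 3 unscaled. Sprr2 and Lce3 genes kept 11 and 5 higher calls with RGRN-305, and 12 and 6 with dexamethasone. Of all genes under this scaling, 1024 and 873 were higher.

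**Figure D1:**
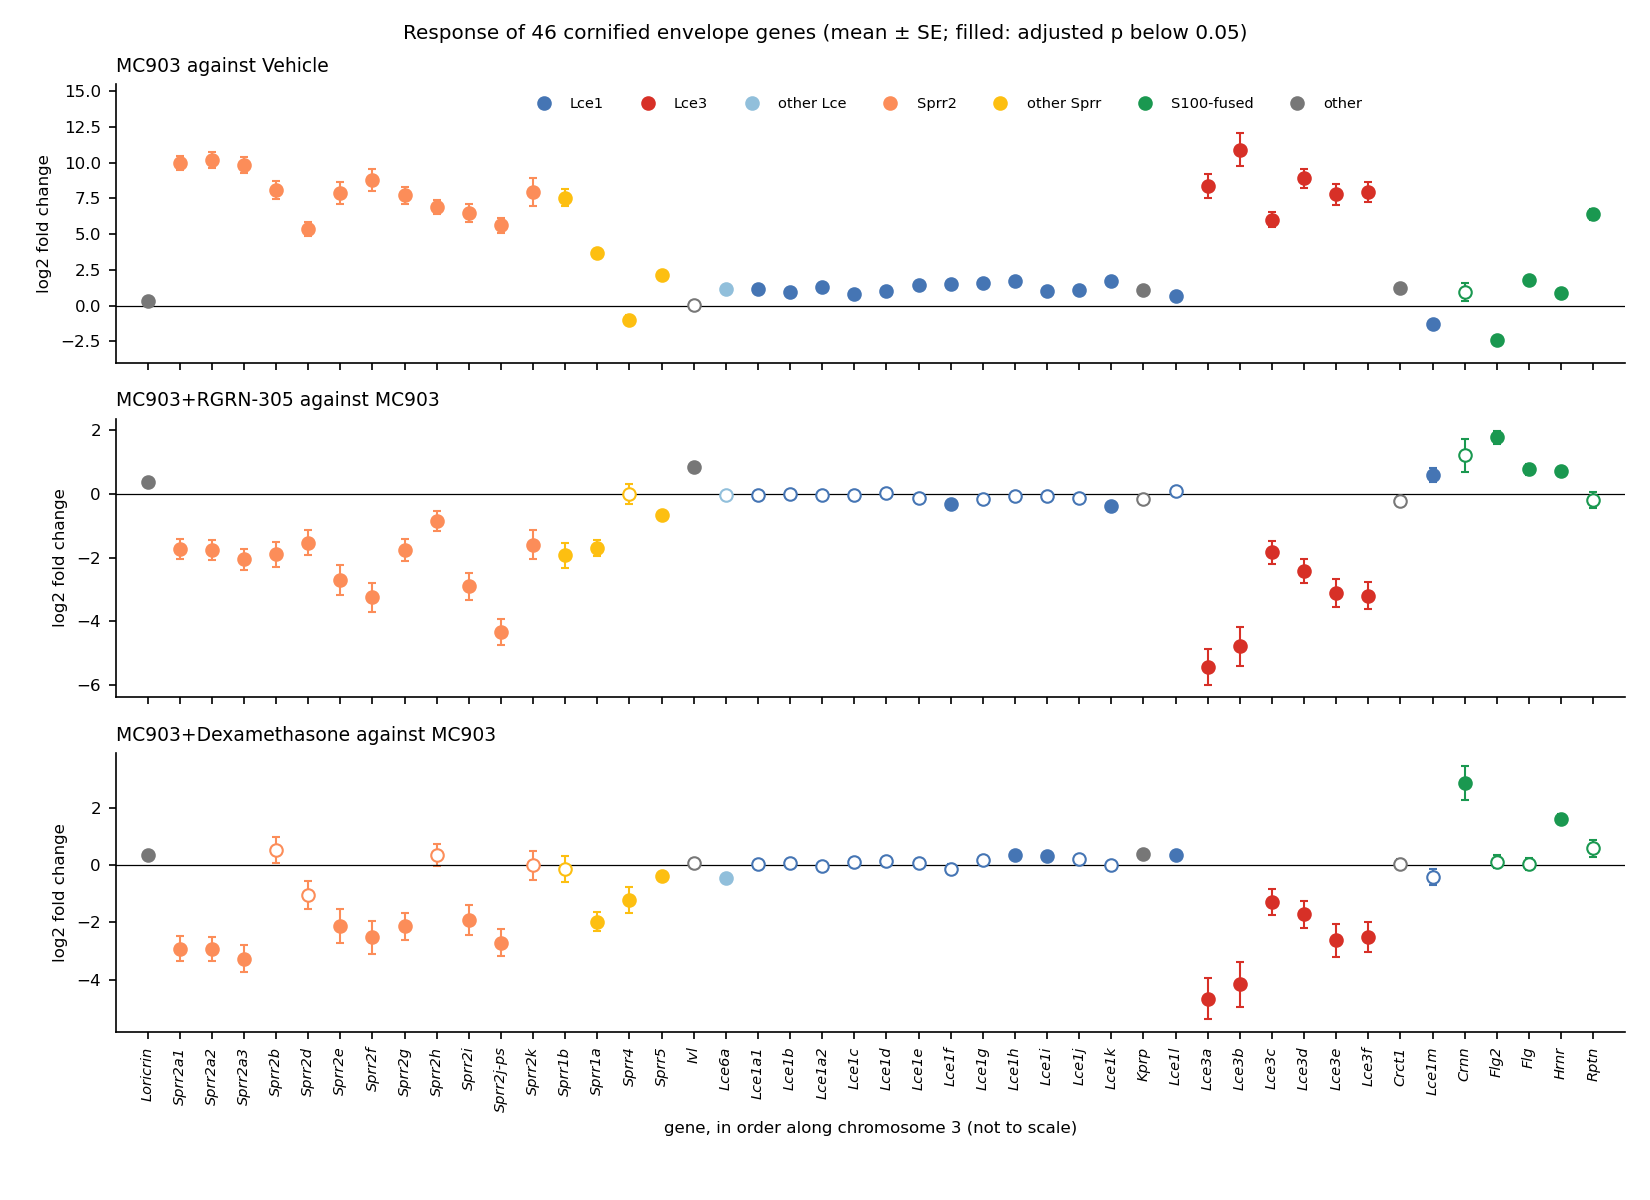
Log2 fold change with its SE (y axis) of the 46 tested members, in their order along chromosome 3 and not to scale (x axis), in MC903 against Vehicle, MC903+RGRN-305 against MC903 and MC903+Dexamethasone against MC903. Filled points passed an adjusted p of 0.05. The Sprr2 and Lce3 genes stand highest in the upper panel, with Sprr1b and Rptn among them. The Lce3 genes lie below 0 in both lower panels, and most Lce1 genes lie near 0 there.

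The Lce3 genes, whose human counterparts are known from epidermal injury and psoriasis, were nearly silent in Vehicle ears. Lce3d (GRCm39 chr3:92864697-92865812) had a lowest, median and highest level of 39.1, 63.0 and 214 CPM in MC903 ears, against 0.0395, 0.179 and 0.651 CPM in Vehicle ears. The groups did not overlap, and the log2 fold change was 8.90 (SE 0.69, edgeR adjusted p = 1.11e-10). With RGRN-305 the levels were 6.32, 20.1 and 25.4 CPM, and the 4 dexamethasone-treated ears had 27.3, 29.7, 30.7 and 22.5 CPM. Every ear of both drug groups was below every MC903 ear and above every Vehicle ear. Lce3d fell by 2.43 on the log2 scale with RGRN-305 (SE 0.38, edgeR adjusted p = 2.16e-05) and by 1.72 with dexamethasone (SE 0.47, edgeR adjusted p = 0.00474), both relative to MC903 ears.

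Lce3a and Lce3b, which lie at one end of the Lce3 cluster (GRCm39 chr3:92832594-92833537 and chr3:92840286-92841404), had larger log2 falls relative to MC903 than Lce3d, a difference between genes that was not tested for these pairs. Lce3b had 0.109, 1.10 and 3.69 CPM (lowest, median, highest) in MC903+RGRN-305 ears and 1.23, 3.33, 2.31 and 0.736 CPM in the 4 MC903+Dexamethasone ears, against 10.1, 18.8 and 102 CPM in MC903 ears. Relative to MC903, Lce3b fell by 4.79 on the log2 scale with RGRN-305 (SE 0.61, edgeR adjusted p = 2.32e-06) and by 4.17 with dexamethasone (SE 0.78, edgeR adjusted p = 0.000154). Only 2 counts of Lce3b were found over the 6 Vehicle libraries. The pooled level in MC903 ears was 2432 times that in Vehicle ears, with a 95% interval for counting error of 673 to 20084. In MC903+RGRN-305 ears this ratio was 98.6 (27.0 to 820), and in MC903+Dexamethasone ears 150.3 (41.0 to 1251).

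Lce3a moved in the same manner. It had 0.109, 0.687 and 1.33 CPM in MC903+RGRN-305 ears and 0.859, 1.86, 0.974 and 0.736 CPM with dexamethasone, against 8.96, 15.3 and 87.3 CPM in MC903 ears and 0, 0.0579 and 0.326 CPM in Vehicle ears. The drug-treated ears did not overlap the MC903 ears, and the log2 fold changes were -5.43 with RGRN-305 (SE 0.57, edgeR adjusted p = 1.59e-07) and -4.68 with dexamethasone (SE 0.72, edgeR adjusted p = 1.38e-05).

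Lce3c had the smallest change of the family in each of these 3 comparisons. Its levels were 10.7, 29.1 and 34.4 CPM in MC903+RGRN-305 ears and 33.4, 40.2, 38.3 and 32.3 CPM in MC903+Dexamethasone ears, against 38.1, 61.2 and 213 CPM in MC903 ears and 0.670, 1.32 and 2.87 CPM in Vehicle ears. The log2 fold change was 6.00 in MC903 against Vehicle, -1.84 with RGRN-305 (edgeR adjusted p = 0.000304) and -1.29 with dexamethasone (edgeR adjusted p = 0.023), both against MC903. Lce3e rose by 7.79 with MC903 and fell by 3.11 with RGRN-305 and by 2.63 with dexamethasone. Lce3f rose by 7.94 with MC903 and fell by 3.21 with RGRN-305, with a log2 fold change of -2.51 with dexamethasone.

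The spread of the Lce3 genes in MC903 ears came largely from MC903 ears 5 and 7, whose summed Lce3 levels were 710.4 and 942 CPM, against 135 to 271 CPM in the other 6 MC903 ears. The same 2 ears had the lowest Hrnr levels of the group. Without them, the 6 Lce3 genes were still called lower with RGRN-305, at log2 fold changes between -4.45 and -1.15. With dexamethasone, 5 of the 6 were still called, and Lce3c was at -0.61 (edgeR adjusted p = 0.142). The call of Lce3c with dexamethasone was also lost without MC903 ear 7 alone (-0.97) or without dexamethasone-treated ear 1 (-1.26) or 4 (-1.24).

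**Figure D2:**
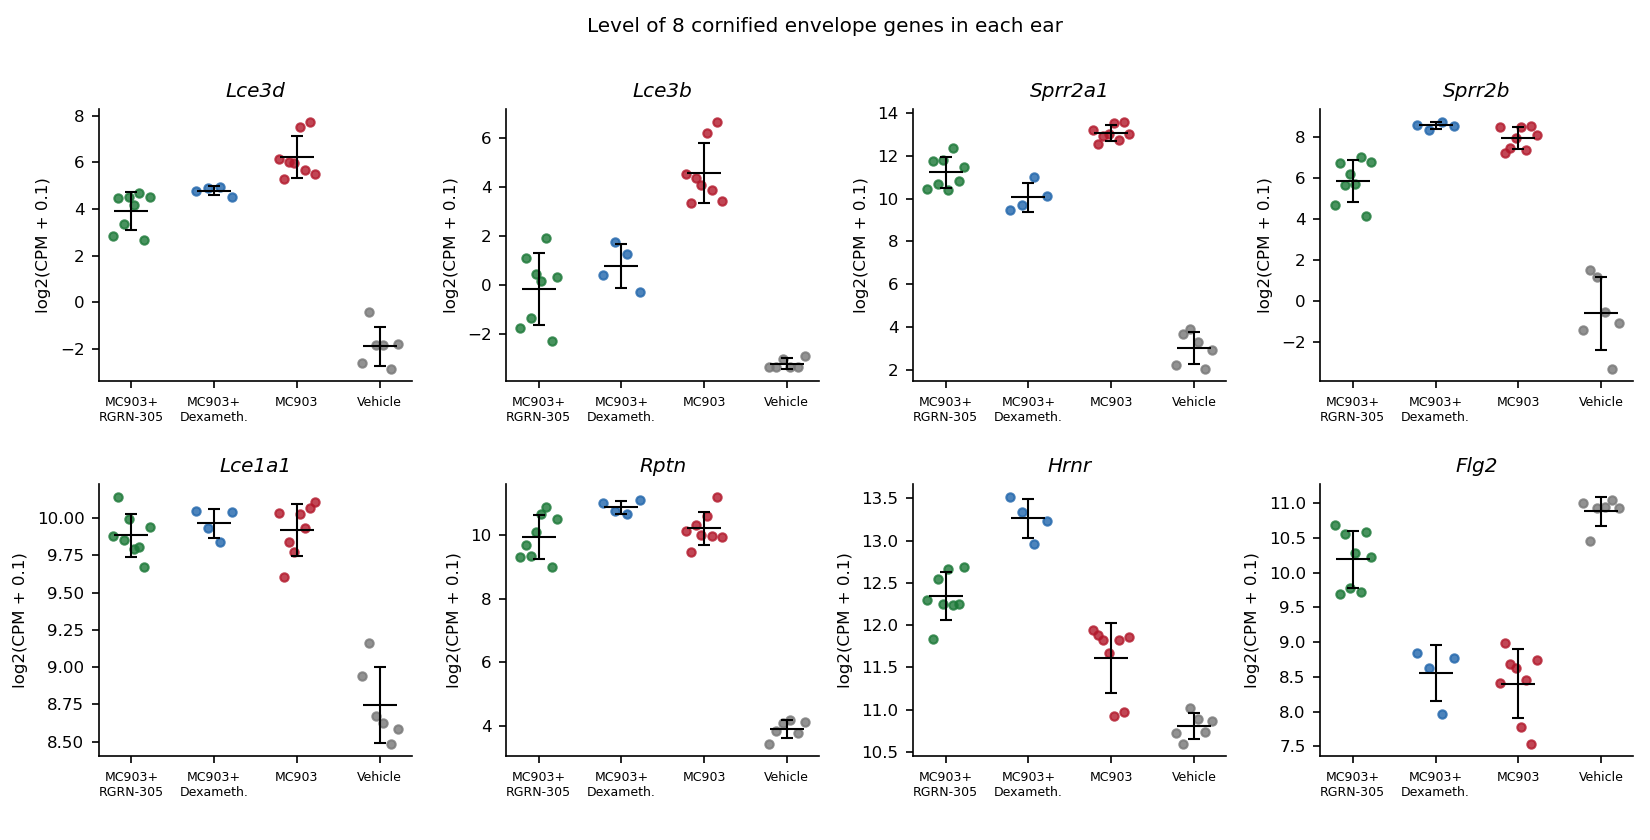
Level of 8 members as log2(CPM + 0.1) (y axis) in each ear, by group (x axis, n = 8 MC903+RGRN-305, 4 MC903+Dexamethasone, 8 MC903 and 6 Vehicle ears), with points for ears and bars for the mean and SD. Lce3d, Lce3b and Sprr2a1 were lower in both drug groups than in MC903, Sprr2b only with RGRN-305 among these 2 drugs, Lce1a1 overlapped between all MC903-treated groups, and Flg2 was lower than in Vehicle ears in all 3 MC903-treated groups, by the least with RGRN-305.

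The Sprr2 genes encode small crosslinking bridge proteins of the envelope and are known to rise in stressed epidermis. They held the largest part of the response in abundance: the summed Sprr2 level was 4247 ± 2161 CPM in MC903+RGRN-305 ears (SD, n = 8), 2596 ± 889 CPM in MC903+Dexamethasone ears (SD, n = 4), 14715 ± 4554 CPM in MC903 ears (SD, n = 8) and 27.3 ± 17.2 CPM in Vehicle ears (SD, n = 6). Of the summed CPM of all members, Sprr2 genes made up 12.8% in MC903+RGRN-305, 7.63% in MC903+Dexamethasone, 37.3% in MC903 and 0.20% in Vehicle ears.

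Most of this signal came from Sprr2a1 (GRCm39 chr3:92123106-92129218). Its lowest, median and highest levels were 5905, 8317 and 12423 CPM in MC903 ears, against 4.03, 8.66 and 14.6 CPM in Vehicle ears, a log2 fold change of 9.97 (SE 0.52, edgeR adjusted p = 1.67e-13). They were 1338, 2362 and 5332 CPM in MC903+RGRN-305 ears, and 699, 844, 2045 and 1099 CPM in the 4 MC903+Dexamethasone ears. Every ear of both drug groups was below the lowest MC903 ear. Relative to MC903, Sprr2a1 fell by 1.73 with RGRN-305 (SE 0.31, edgeR adjusted p = 0.000124) and by 2.92 with dexamethasone (SE 0.43, edgeR adjusted p = 9.54e-06).

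Sprr2a2 and Sprr2a3 gave close values. Sprr2a3 had 361, 709.8 and 1627 CPM in MC903+RGRN-305 ears and 207, 309, 531 and 289 CPM in MC903+Dexamethasone ears, against 1886, 2894 and 5506 CPM in MC903 ears and 1.38, 3.17 and 7.16 CPM in Vehicle ears. Sprr2a2 had 226, 384 and 858 CPM in MC903+RGRN-305 ears and 118, 136, 340.1 and 181 CPM in MC903+Dexamethasone ears, against 964, 1340.2 and 2249 CPM in MC903 ears and 0.463, 0.991 and 2.42 CPM in Vehicle ears. The coding sequences of Sprr2a1 and Sprr2a2 were 100% identical and their annotated spans overlap, so the split of reads between them is uncertain. Of their 150-base exon windows, 93.5% for Sprr2a1 and 93.2% for Sprr2a2 were found more than once between 91900000 and 93400000 on chromosome 3, against 19.3% for Sprr2a3.

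Sprr2b, which neighbours Sprr2a3, rose as these genes did with MC903 and parted from them with dexamethasone. It had 17.5, 61.5 and 130.4 CPM in MC903+RGRN-305 ears and 386, 319, 428 and 375 CPM in the 4 MC903+Dexamethasone ears, against 145, 257 and 374 CPM in MC903 ears and 0, 0.475 and 2.74 CPM in Vehicle ears. The RGRN-305-treated ears were all below the MC903 ears, and 3 of 4 dexamethasone-treated ears were above the highest MC903 ear. The log2 fold change against MC903 was -1.90 with RGRN-305 (SE 0.39, edgeR adjusted p = 0.000471) and 0.53 with dexamethasone, which was not called (SE 0.45, edgeR adjusted p = 0.347).

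Across the family, 12 of 12 Sprr2 genes were called lower with RGRN-305, at log2 fold changes between -4.34 and -0.85. With dexamethasone 8 of 12 were called lower, and Sprr2b, Sprr2d, Sprr2h and Sprr2k were not. Over all genes, 19.4% were called lower with RGRN-305 and 23.3% with dexamethasone. Sprr2d was at -1.04 with dexamethasone, and was called lower when scaled to the epidermal keratins (-1.31, edgeR adjusted p = 0.0269). The dexamethasone group held 4 ears and the RGRN-305 group 8, so a gene not called with dexamethasone may still have fallen. Sprr2h, picked after its values were seen, had 76.3, 129 and 171 CPM in MC903+RGRN-305 ears and between 213 and 332 CPM in the 4 MC903+Dexamethasone ears, against 116, 181 and 454 CPM in MC903 ears. Its fall with RGRN-305 was the smallest of the family, at a log2 fold change of -0.85 (edgeR adjusted p = 0.0325), and was not called without MC903 ears 5 and 7 (-0.48, edgeR adjusted p = 0.219) or by DESeq2 (-0.87, adjusted p = 0.0705).

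The largest fall with RGRN-305 in the family was that of Sprr2j-ps, which carries a pseudogene name but is annotated as protein-coding. It had 0.0405, 0.165 and 0.258 CPM in MC903+RGRN-305 ears and 0.123, 0.432, 1.08 and 0.405 CPM in MC903+Dexamethasone ears, against 1.75, 2.84 and 5.72 CPM in MC903 ears and 0, 0.0313 and 0.197 CPM in Vehicle ears. Its log2 fold change with RGRN-305 was -4.34 (SE 0.42, edgeR adjusted p = 9.62e-09), and the MC903+RGRN-305 ears were not called different from Vehicle ears (1.28, edgeR adjusted p = 0.0901), except without Vehicle ear 5 (1.96, edgeR adjusted p = 0.023). Sprr2k had 0 counts in the 6 Vehicle libraries. Against 3 counts over that group, its pooled level was at least 22.8-fold higher in MC903+RGRN-305 ears, at least 71.1-fold higher in MC903+Dexamethasone ears and at least 69.3-fold higher in MC903 ears.

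Among the other Sprr genes, Sprr1a and Sprr1b encode cornifins, and they divided under dexamethasone as the Sprr2 genes did. Sprr1a had 209, 259 and 304 CPM in MC903+RGRN-305 ears and 210.0, 182, 263 and 201 CPM in MC903+Dexamethasone ears, against 393, 673 and 1919.6 CPM in MC903 ears and 45.1, 65.1 and 95.9 CPM in Vehicle ears. It fell by 1.71 with RGRN-305 (edgeR adjusted p = 1.1e-05) and by 1.98 with dexamethasone (edgeR adjusted p = 3.71e-05). Sprr1b, named after its values were seen, had 65.5, 138 and 231 CPM in MC903+RGRN-305 ears and 501, 377, 552 and 506 CPM in MC903+Dexamethasone ears, against 259, 474 and 1075 CPM in MC903 ears. It fell by 1.93 with RGRN-305 (edgeR adjusted p = 0.000346), while its log2 fold change with dexamethasone was -0.12 (edgeR adjusted p = 0.847).

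Sprr5 rose by 2.14 in MC903 ears, with 1062, 1415 and 1773 CPM, against 266, 321 and 403 CPM in Vehicle ears. It had 728, 864 and 1128 CPM with RGRN-305 and 1326, 839, 1067 and 1227 CPM with dexamethasone, and was called lower with both (-0.66 with RGRN-305, edgeR adjusted p = 1.5e-05, and -0.36 with dexamethasone, edgeR adjusted p = 0.0264). The call with dexamethasone was lost without MC903 ear 7 (-0.31) or dexamethasone-treated ear 2 (-0.25) or 3 (-0.34). Sprr4 went the other way with MC903, at 0.707, 2.31 and 5.56 CPM in MC903 ears, against 3.58, 5.31 and 6.96 CPM in Vehicle ears (log2 fold change -1.01, edgeR adjusted p = 0.0144). It was at 1.02, 1.25, 0.769 and 1.33 CPM with dexamethasone, with a log2 fold change of -1.22 against MC903 (edgeR adjusted p = 0.0321). That call was lost without any 1 of 6 ears, MC903 ear 5 or 7 or any dexamethasone-treated ear (-1.33 to -0.997, adjusted p between 0.0505 and 0.0847). Sprr3 had 1 count in all 26 libraries.

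**Figure D3:**
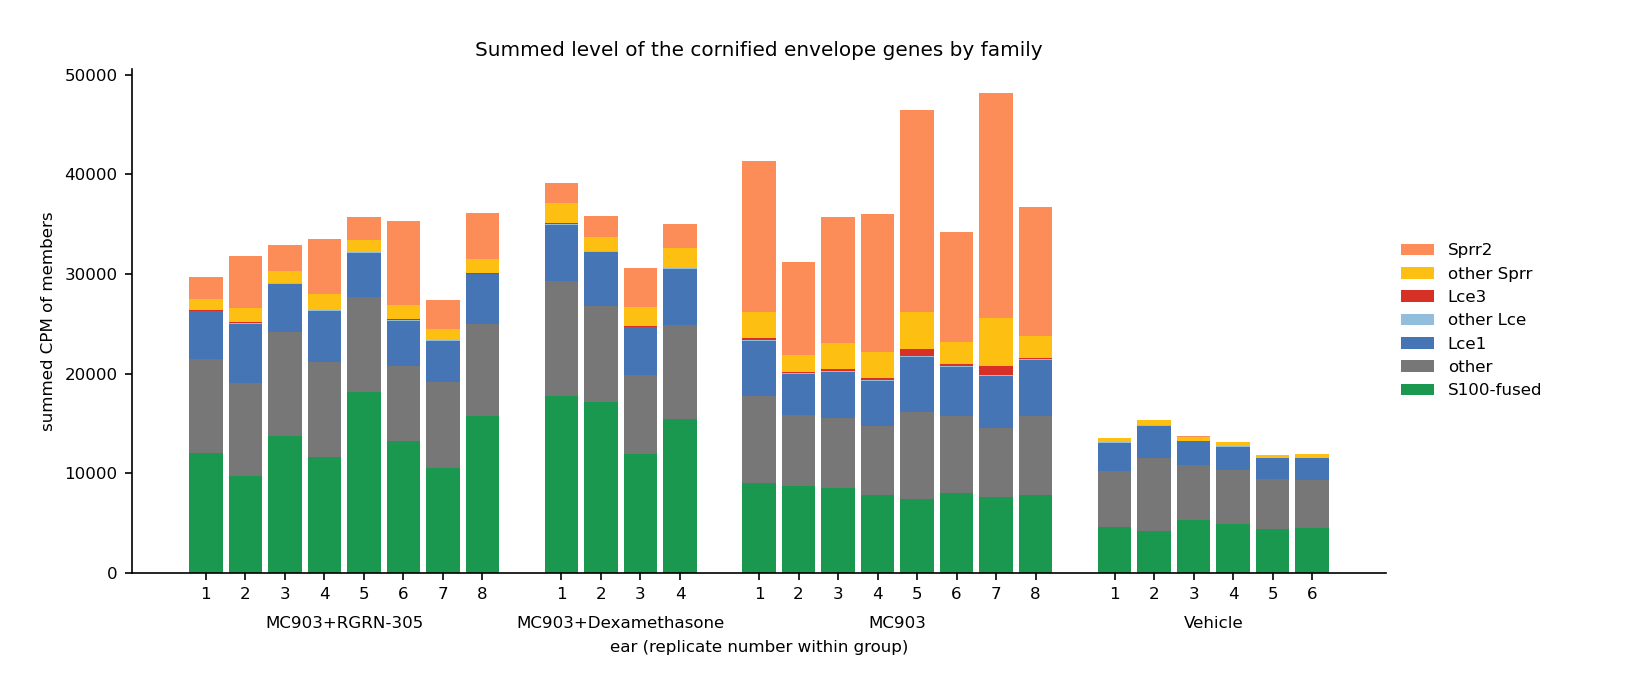
Summed CPM of the members (y axis), stacked by family, in each of the 26 ears grouped by treatment (x axis, replicate number). The Sprr2 part is large in MC903 ears and smaller in both drug groups, the S100-fused part is larger in both drug groups than in MC903 ears, and the Lce1 part is alike in the 3 MC903-treated groups.

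The Lce1 genes, which encode envelope proteins of normal late differentiation, rose with MC903 in 13 of 14 cases, and few were called with the drugs. Their summed level was 4822 ± 532 CPM in MC903+RGRN-305 ears (SD, n = 8), 5366 ± 394 CPM in MC903+Dexamethasone ears (SD, n = 4), 5000 ± 555 CPM in MC903 ears (SD, n = 8) and 2523 ± 413 CPM in Vehicle ears (SD, n = 6). With RGRN-305, 1 of 14 was called higher and 2 were called lower (median log2 fold change -0.06), and with dexamethasone 3 were called higher and 0 lower (median 0.10). The shares over all genes were 18.6% higher and 19.4% lower with RGRN-305, and 23% and 23.3% with dexamethasone. The Lce1f call with RGRN-305 (-0.32) was lost with no filter, only 2 groups or the replicate block (edgeR adjusted p 0.0548 to 0.0851). It was also lost without the 2 shallowest libraries (-0.28) or the 2 MC903 ears of highest Lce3 level (-0.19, edgeR adjusted p = 0.249). It held with DESeq2, RLE size factors and keratin scaling. At an unadjusted p below 0.05, 0 Lce1 genes were lower with dexamethasone in edgeR, and 0 were called lower by DESeq2. Scaled to the epidermal keratins, 0 were called higher and 1 lower with dexamethasone (median -0.14), where Lce1h (0.12), Lce1i (0.07) and Lce1l (0.13) lost their calls and Lce1f was at -0.38 (edgeR adjusted p = 0.0218). Of all 20167 genes, 1918 were higher and 7424 lower with dexamethasone under this scaling.

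Lce1a1, the most abundant Lce1 gene, had 814, 934 and 1131 CPM in MC903+RGRN-305 ears and 1057, 979.6, 914 and 1052 CPM in MC903+Dexamethasone ears, against 777, 1009 and 1102 CPM in MC903 ears and 359, 401 and 574 CPM in Vehicle ears. The 3 MC903-treated groups overlapped and all lay above Vehicle. The log2 fold change with MC903 was 1.17 (SE 0.10, edgeR adjusted p = 2.99e-11), and it was -0.04 with RGRN-305 and 0.04 with dexamethasone, neither of which was called. Lce1c followed the same pattern, at 422, 497 and 571 CPM in MC903+RGRN-305 ears and 581, 540.5, 470.3 and 586 CPM in MC903+Dexamethasone ears, against 435, 494 and 588 CPM in MC903 ears and 226, 272 and 380.4 CPM in Vehicle ears.

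Within the family the response to MC903 varied. Lce1k and Lce1h rose most, by 1.71 and 1.69, and Lce1l least of the 13 that rose, by 0.69. Lce1h had 148, 172 and 213 CPM in MC903+RGRN-305 ears and 248, 238, 211 and 248 CPM in MC903+Dexamethasone ears, against 152, 181 and 221 CPM in MC903 ears and 44.5, 57.7 and 69.4 CPM in Vehicle ears. It was called higher with dexamethasone (0.35, edgeR adjusted p = 0.00763), as were Lce1i and Lce1l. Lce1k had 87.4, 99.3 and 131 CPM in MC903+RGRN-305 ears and 139.6, 138, 121 and 135 CPM in MC903+Dexamethasone ears, against 99.1, 137 and 153 CPM in MC903 ears and 32.7, 38.8 and 53.8 CPM in Vehicle ears, and was called lower with RGRN-305 (-0.39, edgeR adjusted p = 0.00149).

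Lce1m (GRCm39 chr3:92925117-92926367), which lies apart from the other Lce1 genes beyond the Lce3 cluster, was the member of the family that fell. It had 103, 194 and 329.5 CPM in MC903+RGRN-305 ears and 121, 73.3, 100.1 and 129.7 CPM in MC903+Dexamethasone ears, against 87.3, 141 and 214 CPM in MC903 ears and 291, 356 and 437 CPM in Vehicle ears. MC903 and Vehicle ears did not overlap (log2 fold change -1.32, SE 0.25, edgeR adjusted p = 5.32e-05). It was called higher with RGRN-305 (0.59, edgeR adjusted p = 0.048), a call that was lost on leaving out any 1 of 19 single ears, in all 4 groups (0.47 to 0.61, adjusted p between 0.0517 and 0.114). Lce6a had 76.6, 81.9 and 103 CPM in MC903+RGRN-305 ears and 64.2, 68.0, 55.2 and 67.1 CPM in MC903+Dexamethasone ears, against 72.1, 83.9 and 101 CPM in MC903 ears and 28.6, 36.3 and 60.0 CPM in Vehicle ears, and was called lower with dexamethasone (-0.44, edgeR adjusted p = 0.00591).

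The S100-fused genes lie side by side, share a calcium-binding start and long repeats, and did not move as a group. Flg2 and Flg, neighbours whose proteins serve the keratin matrix, went in opposite directions with MC903. Flg2 (GRCm39 chr3:93104585-93128698) had 825, 1222 and 1651 CPM in MC903+RGRN-305 ears and 460.3, 397, 249 and 437 CPM in MC903+Dexamethasone ears, against 186, 373 and 507 CPM in MC903 ears and 1409.6, 1962 and 2104 CPM in Vehicle ears. Every MC903+RGRN-305 ear lay above every MC903 ear, while the dexamethasone-treated ears lay within the range of the MC903 ears. The log2 fold change was -2.42 in MC903 against Vehicle (SE 0.21, edgeR adjusted p = 1.97e-10), 1.77 with RGRN-305 against MC903 (SE 0.19, edgeR adjusted p = 1.63e-07) and 0.12 with dexamethasone against MC903 (SE 0.23, edgeR adjusted p = 0.689). Against Vehicle it was -0.65 in MC903+RGRN-305 ears (edgeR adjusted p = 0.00707) and -2.30 in MC903+Dexamethasone ears (edgeR adjusted p = 7.46e-08).

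Flg (GRCm39 chr3:93180830-93200993) had 3638, 5157 and 8769.5 CPM in MC903+RGRN-305 ears and 3422, 4631, 2113 and 3117 CPM in MC903+Dexamethasone ears, against 2683, 3147 and 3675 CPM in MC903 ears and 519, 944 and 1261 CPM in Vehicle ears. It rose by 1.81 with MC903 (SE 0.20, edgeR adjusted p = 1.17e-08) and by a further 0.77 with RGRN-305 (SE 0.18, edgeR adjusted p = 0.00111). The value with dexamethasone was 0.04 (edgeR adjusted p = 0.9).

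Hrnr, a filaggrin-like protein of the envelope, was highest with dexamethasone. It had 3656, 4953 and 6611 CPM in MC903+RGRN-305 ears and 11761, 10349, 7963 and 9633 CPM in MC903+Dexamethasone ears, against 1947, 3628 and 3949 CPM in MC903 ears and 1548, 1786 and 2078 CPM in Vehicle ears. The dexamethasone-treated ears lay above all ears of the other groups. Hrnr rose by 1.62 with dexamethasone (SE 0.16, edgeR adjusted p = 7.42e-09) and by 0.71 with RGRN-305 (SE 0.14, edgeR adjusted p = 0.000171). Of the 150-base exon windows, 67.4% in Hrnr, 48.4% in Flg and 46.6% in Flg2 were found more than once in the complex, so reads from the repeats of these genes may be left out of counts of uniquely placed reads.

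Rptn, which encodes an envelope precursor, was at 516, 966 and 1912 CPM in MC903+RGRN-305 ears and 2054, 1729, 1622 and 2204 CPM in MC903+Dexamethasone ears, against 708, 1079.6 and 2379 CPM in MC903 ears and 10.7, 15.6 and 18.1 CPM in Vehicle ears. It rose by 6.38 with MC903 (SE 0.37, edgeR adjusted p = 9.14e-13), and was not called with RGRN-305 (-0.21, edgeR adjusted p = 0.557) or dexamethasone (0.59, edgeR adjusted p = 0.116). Without MC903 ears 5 and 7 the value with dexamethasone was 0.88 (edgeR adjusted p = 0.018). Crnn had 2.29, 5.88 and 8.16 CPM in MC903+RGRN-305 ears and 28.7, 18.4, 13.5 and 10.6 CPM in MC903+Dexamethasone ears, against 1.47, 2.32 and 3.20 CPM in MC903 ears and 0, 0.234 and 6.32 CPM in Vehicle ears. It rose by 2.88 with dexamethasone against MC903 (edgeR adjusted p = 0.000405), and its comparison of MC903 with Vehicle rested on Vehicle ear 2, with a log2 fold change of 0.96 with it (edgeR adjusted p = 0.185) and 2.34 without it (edgeR adjusted p = 0.000316).

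Of the single-copy genes, Loricrin, the main protein of the envelope by mass, was the most abundant member per length in Vehicle ears. It had 6125, 7931 and 9031 CPM in MC903+RGRN-305 ears and 9443, 7858, 6314 and 7509.8 CPM in MC903+Dexamethasone ears, against 5037, 6064 and 7071 CPM in MC903 ears and 4096, 4704 and 6571 CPM in Vehicle ears. Its log2 fold change was 0.32 in MC903 against Vehicle (edgeR adjusted p = 0.00834), and 0.36 with either drug against MC903 (edgeR adjusted p = 0.00413 with RGRN-305 and 0.0128 with dexamethasone). Without dexamethasone-treated ear 1 the value was 0.25 (edgeR adjusted p = 0.11). Relative to the summed epidermal keratins Krt5, Krt14, Krt1 and Krt10 it was lower in MC903 than in Vehicle ears, at -0.49, and its value with dexamethasone against MC903 was 0.11 (edgeR adjusted p = 0.403). Per kb of transcript, Loricrin averaged 4368 CPM in MC903+RGRN-305, 4374 in MC903+Dexamethasone, 3415 in MC903 and 2741 in Vehicle ears.

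Ivl, a scaffold protein of the early envelope, had 69.9, 113 and 133 CPM in MC903+RGRN-305 ears and 72.0, 69.1, 47.8 and 61.4 CPM in MC903+Dexamethasone ears, against 40.3, 57.7 and 79.7 CPM in MC903 ears and 46.0, 58.5 and 69.3 CPM in Vehicle ears. MC903 and Vehicle overlapped (0.05, edgeR adjusted p = 0.764), and Ivl rose only with RGRN-305 of these 2 drugs (0.84, SE 0.14, edgeR adjusted p = 1.94e-05). Kprp, a keratinocyte proline-rich protein, had 609, 784 and 836 CPM in MC903+RGRN-305 ears and 1305, 961, 964 and 1138 CPM in MC903+Dexamethasone ears, against 767, 839 and 899 CPM in MC903 ears and 361, 396 and 413 CPM in Vehicle ears. The dexamethasone-treated ears were above all MC903 ears (0.39, edgeR adjusted p = 0.000555), and scaled to the epidermal keratins the value was 0.15 (edgeR adjusted p = 0.229). Crct1 rose by 1.27 with MC903 and was not called with either drug. Lelp1 had 25 counts over the MC903+RGRN-305 libraries, 19 over MC903+Dexamethasone, 28 over MC903 and 1 over Vehicle.

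To find where the 2 drugs differed, MC903+RGRN-305 ears were compared directly with MC903+Dexamethasone ears. Of the members, 9 were higher and 13 lower with RGRN-305, where 35.4% of all genes were called, 17.6% higher and 17.8% lower. Scaled to the epidermal keratins, the split was 11 higher and 7 lower, where 8376 of all 20167 genes were higher and 1084 lower. Higher with RGRN-305 were Flg2 (1.65, SE 0.25, edgeR adjusted p = 1.41e-05), Ivl (0.78, SE 0.17, edgeR adjusted p = 0.000806), Flg (0.73, SE 0.22, edgeR adjusted p = 0.0121) and Sprr2a1 (1.19, SE 0.39, edgeR adjusted p = 0.0218). Lower with RGRN-305 were Sprr2b (-2.44, SE 0.44, edgeR adjusted p = 0.000176), Sprr1b (-1.81, SE 0.44, edgeR adjusted p = 0.00255), Hrnr (-0.91, SE 0.16, edgeR adjusted p = 8.37e-05) and Kprp (-0.55, SE 0.09, edgeR adjusted p = 1.35e-05).

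None of the 6 Lce3 genes was called different between the drugs by edgeR, with log2 fold changes between -0.75 and -0.48, 0 at an unadjusted p below 0.05 and 0 called by DESeq2. For Lce3d the difference was -0.71 with an SE of 0.44, so a difference of either small or moderate size was within the error. The count of 9 higher members rested on single dexamethasone-treated ears, and was 5 when replicate 1, 2 or 4 of that group was left out. Sprr2a1, Sprr2a2 and Sprr2a3 lost their calls in each of these cases, with log2 fold changes of 0.97 to 1.18, and Flg lost its call without replicate 3 (0.56, edgeR adjusted p = 0.0584).

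**Figure D4:**
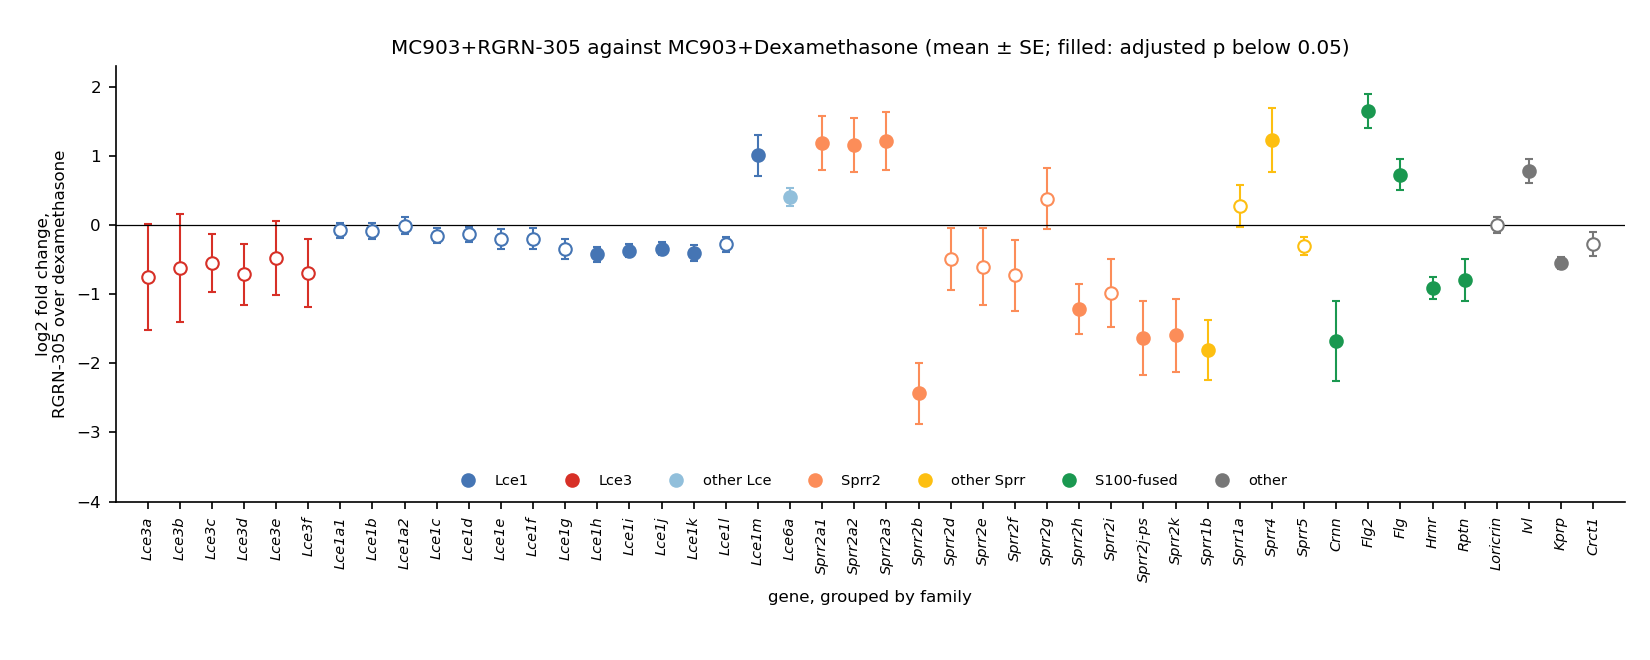
Log2 fold change with its SE (y axis) in MC903+RGRN-305 over MC903+Dexamethasone for the 46 tested members, grouped by family (x axis), with filled points at an adjusted p below 0.05. Flg2, Ivl and the Sprr2a genes lie above 0, Sprr2b, Sprr1b, Hrnr and Kprp below 0, and the 6 Lce3 genes are open points below 0.

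Neighbouring genes were compared in 42 pairs, each made of tested Lce, Sprr, S100-fused or single-copy genes that followed each other along the chromosome within that class. Each pair was measured as the log2 ratio of its CPM in each ear, with 0.5 CPM added to both. Groups were compared by an exact two-sided permutation test, adjusted over 168 tests. The smallest p it allows is 0.000333 for MC903 against Vehicle, 0.000155 for MC903+RGRN-305 against MC903 and 0.00202 for comparisons with MC903+Dexamethasone. The ratio differed past an adjusted p of 0.05 in 31 of 42 pairs for MC903 against Vehicle, 22 for MC903+RGRN-305 against MC903, 20 for MC903+Dexamethasone against MC903 and 13 for MC903+RGRN-305 against MC903+Dexamethasone. Pairs of genes that are not neighbours were not measured. These counts therefore do not tell whether neighbours answered more or less alike than other genes.

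The Lce3f to Lce1m ratio differed most, by 7.46 on the log2 scale between MC903 and Vehicle ears (exact permutation p = 0.000333). At the other border of the cluster, the Lce1l to Lce3a ratio differed by -4.47 between MC903 and Vehicle, by 4.38 between MC903+RGRN-305 and MC903 and by 4.13 between MC903+Dexamethasone and MC903. The size of these differences depends on the added 0.5 CPM. Lce3a was at most 0.326 CPM in Vehicle ears and at 0.109 to 1.33 CPM in MC903+RGRN-305 ears, and Lce3f was at 0.0790 to 0.586 CPM in Vehicle ears. The Lce6a to Lce1a1 ratio differed by -0.003 between MC903 and Vehicle (exact permutation p = 0.975).

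Within the Lce3 cluster, coding sequences were between 94.6% and 99.3% identical, while the 250 upstream bases had a median identity of 58.6%. Of the 150-base exon windows, 39.7% in Lce3f, 31.1% in Lce3e, 17.1% in Lce3c, 2% in Lce3d and 0% in Lce3a and Lce3b were found more than once in the complex, so the split of reads is less certain for Lce3c, Lce3e and Lce3f. Lce3b and Lce3c, with 97.3% coding and 58.4% upstream identity, differed in their response to both drugs. Their log2 ratio was -4.01 ± 0.44 in MC903+RGRN-305 ears (SD, n = 8) and -1.60 ± 0.32 in MC903 ears (SD, n = 8), a difference of -2.41 (exact permutation p = 0.000155, adjusted p = 0.0017). It was -4.06 ± 0.58 in MC903+Dexamethasone ears (SD, n = 4), a difference of -2.45 from MC903 ears (exact permutation p = 0.00202, adjusted p = 0.00492). Between MC903 and Vehicle ears it differed by 0.22 (exact permutation p = 0.403), where the added 0.5 CPM exceeds the Vehicle level of Lce3b.

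Among Sprr2 genes the Sprr2a3 to Sprr2b ratio, with 75.3% coding identity, differed by -3.88 between MC903+Dexamethasone and MC903 ears (exact permutation p = 0.00202, adjusted p = 0.00492) and by -0.06 between MC903+RGRN-305 and MC903 ears (exact permutation p = 0.861). Between the drugs it differed by 3.82. The Sprr1b to Sprr1a ratio, with 78.9% coding identity, differed by 1.80 between MC903+Dexamethasone and MC903 (exact permutation p = 0.00202) and by -0.41 between MC903+RGRN-305 and MC903 (exact permutation p = 0.11). The Sprr2a1 to Sprr2a2 ratio did not pass in the 4 comparisons, with differences between -0.002 and 0.17, in genes whose reads are hard to tell apart.

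Among the 12 Lce1 pairs, 8 passed between MC903 and Vehicle, 3 between MC903+RGRN-305 and MC903, 3 between MC903+Dexamethasone and MC903, and 0 between the drugs. The largest difference between MC903 and Vehicle was 0.997, of Lce1k to Lce1l. The Flg2 to Flg ratio differed by -4.35 between MC903 and Vehicle (exact permutation p = 0.000333) and by 1.06 between MC903+RGRN-305 and MC903 (exact permutation p = 0.000622), and by 0.16 between MC903+Dexamethasone and MC903 (exact permutation p = 0.592). The Flg to Hrnr ratio differed by -1.66 between MC903+Dexamethasone and MC903 (exact permutation p = 0.00202) and by -0.01 between MC903+RGRN-305 and MC903.

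Other genes of the pathway were counted from fixed lists. Of 10 scaffold and crosslinking genes of the envelope, 6 were higher and 2 lower with MC903, 4 higher and 4 lower with RGRN-305, and 7 higher and 0 lower with dexamethasone, where the log2 fold changes had medians of 0.21, 0.08 and 0.41. Over all genes, 34.5% were called higher and 35.7% lower with MC903, 18.6% and 19.4% with RGRN-305, and 23% and 23.3% with dexamethasone. The transglutaminases Tgm1 and Tgm5 each rose by 1.44 with MC903 and fell by 0.71 and 0.77 with RGRN-305, while Cdsn (corneodesmosin, an adhesion protein of cornified cells) rose by 1.88 with MC903, fell by 0.37 with RGRN-305 and rose by 0.49 with dexamethasone. The 4 scaffold and crosslinking genes that were higher with RGRN-305 are not named here, so the named genes do not stand for the list. Of 12 genes of filaggrin processing, 9 were higher and 1 lower with MC903, 0 higher and 2 lower with RGRN-305, and 3 higher and 1 lower with dexamethasone. The kallikrein Klk7 rose by 2.70 with MC903 and fell by 0.56 with RGRN-305.

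Markers of other cells and of epidermal layers also differed between the groups. The 4 genes of stressed epidermis summed to 1391.5 to 7058 CPM in MC903+RGRN-305, 6064 to 16274 CPM in MC903+Dexamethasone, 10369 to 30649 CPM in MC903 and 295 to 377 CPM in Vehicle ears. By its median, this sum was lower with both drugs, at 2717 CPM with RGRN-305 and 6986 CPM with dexamethasone, against 17236 CPM in MC903 ears. Of these genes, 4 of 4 were called higher with MC903 and lower with RGRN-305. Over all genes, 34.5% were called higher with MC903 and 19.4% lower with RGRN-305. The 8 leukocyte genes summed to 120 to 217 CPM in MC903+RGRN-305, 89.2 to 174 CPM in MC903+Dexamethasone, 351 to 911 CPM in MC903 and 104 to 152 CPM in Vehicle ears. The 6 fibroblast genes summed to 1894 to 2981 CPM in MC903+RGRN-305, 1099 to 1367 CPM in MC903+Dexamethasone, 2159 to 3417 CPM in MC903 and 4261 to 6755 CPM in Vehicle ears. The 5 skeletal muscle genes summed to 163 to 736 CPM in MC903+RGRN-305, 598 to 844 CPM in MC903+Dexamethasone, 144 to 365 CPM in MC903 and 1020.3 to 2105 CPM in Vehicle ears. The 4 adipocyte genes summed to 16.7 to 36.2 CPM in MC903+RGRN-305, 46.4 to 90.1 CPM in MC903+Dexamethasone, 9.43 to 19.9 CPM in MC903 and 67.9 to 128 CPM in Vehicle ears. These 2 lists were lowest in MC903 ears and highest in Vehicle ears by their medians. The 6 genes of spinous and granular epidermis summed to 51700 to 73268 CPM in MC903+RGRN-305, 69926 to 81541 CPM in MC903+Dexamethasone, 36838 to 66075 CPM in MC903 and 31704 to 45059 CPM in Vehicle ears. The part of these lists in the results was not tested. Scaled to the epidermal keratins, the log2 fold change in MC903 against Vehicle had medians of 7.19 in Sprr2, 7.41 in Lce3 and 0.32 in Lce1 genes, where the median of all genes was -0.83 under this scaling, against -0.02 without it.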

How the data were processed

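Total RNA (100 ng) from ear biopsies was made into stranded libraries and sequenced as paired reads of 150 bases. The authors aligned reads to GRCm39 and deposited raw counts of uniquely and unambiguously assigned reads per gene (Subread 2.10.3, per the submitters' processing notes). The strand setting and the annotation release are not given in the sources used here. The mice are Balb/c and the genome is that of another strain, and reads in near-identical genes are lost or split, which lowers the precision of those genes. The deposited table held 57010 genes, of which 56310 gene identifiers matched a symbol. Groups came from the sample titles, each library being 1 mouse, and no libraries held duplicate counts. Depth limits genes of a few counts per library, and intervals cover counting error only.

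Genes were kept by filterByExpr (minimum count 10, minimum total 15), normalised by TMM and tested in 1 edgeR model over the 4 groups without a replicate block (edgeR 4.0.16, R 4.3.3). Alternatives were DESeq2 1.42.0, RLE size factors, keratin scaling, no filter, only 2 groups, a replicate block, a fold limit of 1.5 (log2) and each mouse left out. Leaving out the 2 shallowest libraries, or the 2 MC903 ears of highest Lce3 level, was added after seeing the data. Pair ratios, permutation tests and sequence searches used Python 3.11.15 with scipy 1.17.1, and figures matplotlib 3.10.9. The tests were tried on simulated data.

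Members and lists were chosen with earlier results of these data known. Full values were given for the 2 members of highest mean CPM in each family and the 3 called members of smallest p in each direction of the 6 comparisons between groups, and for up to 3 genes of smallest p in each other list. Others are said to have been picked after their values were seen. Neighbours were paired by position among the tested members and protein sequences were not used here, and Sprr2c-ps, 1 symbol annotated as a pseudogene, was left out.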

Additional observations from a re-analysis of the deposited data

Results flagged for a closer look

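Of 183 member and group combinations tested, 7 held an ear far from the rest of its group on the log2 CPM scale by Dixon's ratio of the gap to the range, where chance gives about 9.2. They fell on 2 ears. Vehicle ear 2, the library of lowest depth, was the highest of its 6 for Loricrin (6571 CPM, group median 4704, ratio 0.64), Sprr2f (1.37 CPM, group median 0.105, ratio 0.64), Sprr2g (2.41 CPM, group median 0.310, ratio 0.646) and Lce3e (0.781 CPM, group median 0.151, ratio 0.683). It was the lowest for Flg2 (1409.6 CPM, group median 1962, ratio 0.804). The critical ratio is 0.625 for 6 ears. MC903+RGRN-305 ear 2 was the highest of its 8 for Lce6a (103 CPM, group median 81.9, ratio 0.609) and Lce1k (131 CPM, group median 99.3, ratio 0.56), where the critical ratio is 0.526.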

How the results depend on the processing

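The counts of called members held within 1.5 times of those reported under DESeq2, RLE size factors, no filter on low counts and the replicate block. Of 156 log2 fold changes of named members, 155 kept their direction and their side of the threshold with DESeq2, 155 with RLE size factors, 150 with no filter, 145 with the block and 133 with keratin scaling. Under a fold limit of 1.5 on the log2 scale, the counts that moved by more than 1.5 times were 27 higher and 1 lower in MC903 against Vehicle, 1 higher in MC903+RGRN-305 against MC903, 2 higher in MC903+Dexamethasone against MC903, 1 higher and 5 lower in MC903+RGRN-305 against MC903+Dexamethasone, and 24 higher and 0 lower in MC903+RGRN-305 against Vehicle, which follows from the stricter limit. The counts of members lower with each drug against MC903 held within 1.5 times under this limit and are not listed. So did the counts in MC903+Dexamethasone against Vehicle. With only the 2 groups in the fit, 5 members were higher in MC903+RGRN-305 against MC903+Dexamethasone, and with each mouse left out this count ranged between 5 and 9 (5 without dexamethasone-treated ear 1, 2 or 4), and the cause was not tested.

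Of all 20167 genes, keratin scaling gave 14935 lower in MC903 against Vehicle, 1918 higher in MC903+Dexamethasone against MC903, 1084 lower in MC903+RGRN-305 against MC903+Dexamethasone and 16595 lower in MC903+Dexamethasone against Vehicle. Among the members, keratin scaling gave 5, 2, 7 and 6 in these comparisons and directions in turn. It changed the sign of Loricrin in MC903 against Vehicle (-0.49), MC903+RGRN-305 against MC903+Dexamethasone (0.32), MC903+RGRN-305 against Vehicle (-0.051) and MC903+Dexamethasone against Vehicle (-0.37), Ivl in MC903 against Vehicle (-0.75) and MC903+Dexamethasone against Vehicle (-0.94), and Lce6a (-0.32) and Lce1c (-0.087) in MC903+Dexamethasone against Vehicle. Without scaling, Loricrin between the drugs (-0.002) and Ivl in these comparisons (0.05 and 0.12) were not called. With scaling, Loricrin in MC903+RGRN-305 against Vehicle and Lce1c were not called. The median of all genes under this scaling was -0.83 in MC903 against Vehicle, against -0.02 without it, and -1.10 in MC903+Dexamethasone against Vehicle, against -0.05 without it.

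Per kb of transcript, the single-copy genes held 32.1% of the summed level in MC903+RGRN-305 and 29.5% in MC903+Dexamethasone ears, and Sprr2 genes 26.3% in MC903 ears. In MC903+RGRN-305, MC903+Dexamethasone, MC903 and Vehicle ears in turn, the shares were 39.2%, 38.9%, 30.7% and 44.7% for Lce1, 0.584%, 0.825%, 2.53% and 0.0499% for Lce3, 6.40%, 8.03%, 3.47% and 4.06% for S100-fused genes, 10.7%, 12.97%, 16.2% and 7.66% for other Sprr genes, and 0.62%, 0.416%, 0.48% and 0.629% for Lce6a, since short transcripts weigh more on this scale.

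The mouse numbers did not pair the libraries: deviations from the group means of 32 same-number pairs correlated between -0.342 and 0.286 (median -0.0585), and 2 of 26 libraries lay nearest to one with their own number. With the replicate block, 41 members were higher and 3 lower in MC903 against Vehicle, 5 and 21 in MC903+RGRN-305 against MC903, 7 and 13 in MC903+Dexamethasone against MC903, and 6 and 11 in MC903+RGRN-305 against MC903+Dexamethasone.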

Other observations

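Transcription factors and other regulators of epidermal differentiation were counted as a further list. Of 27, 20 were higher and 3 lower in MC903 against Vehicle, 4 higher and 14 lower in MC903+RGRN-305 against MC903, and 4 higher and 9 lower in MC903+Dexamethasone against MC903. Over all genes, 34.5% were higher and 35.7% lower in the first of these comparisons, 18.6% and 19.4% in the second, and 23% and 23.3% in the third. The AP-1 factor Fosl1 rose by 3.02 on the log2 scale with MC903 and fell by 1.34 with RGRN-305, and its value with dexamethasone was -0.08, which was not called. Between the drugs it was lower with RGRN-305 (-1.25). The AP-1 factor Junb rose by 2.102 with MC903 and fell by 0.57 with RGRN-305.

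Of 16 tested genes that lie in the same complex but are no members, 13 were higher and 0 lower in MC903 against Vehicle, 0 higher and 10 lower in MC903+RGRN-305 against MC903, and 0 higher and 7 lower in MC903+Dexamethasone against MC903, to be set beside the same shares over all genes. S100a8, a calcium-binding protein of neutrophils and stressed keratinocytes, rose by 8.28 with MC903 and fell by 3.77 with RGRN-305 and by 3.60 with dexamethasone. Pglyrp4, a peptidoglycan recognition protein, rose by 2.998 with MC903 and fell by 2.40 with RGRN-305 and by 2.53 with dexamethasone.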
